A study of Mus musculus with 9 samples.

Results

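The genes described here encode the DNA replication machinery. They are 43 of the 55488 genes listed in each table, chosen by symbol, and all 43 were found in the tables of all 9 libraries. Expression was measured by RNA sequencing of 100 sorted cells per library from mouse fetal livers at embryonic day 14.5 (C57BL/6), with 3 libraries in each of 3 groups. Every embryo carried the ROSA-Evi1 allele, in which Evi1, a zinc finger factor that the Mecom gene encodes, is placed at the ROSA locus. The Evi1 HSC group carried Tie2-Cre::ROSA-Evi1. Tie2-Cre acts in endothelial cells and in the blood cells that come from them, so Evi1 induction was not limited to stem cells. Evi1 HSC cells were sorted in a haematopoietic stem cell (HSC) gate, Lin-, Sca-1+, c-Kit+, CD48- and CD150+, and were also GFP+. WT HSC cells came from ROSA-Evi1 embryos without Cre and were sorted by the same surface markers without GFP. WT KL cells, from that same genotype without Cre, were Lin-, c-Kit+ and Sca-1-, a gate of committed progenitors. The labels do not say whether replicates came from separate embryos, so the spread behind each p-value is that of these samples and may be technical.

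DNA replication starts where the origin recognition complex (ORC) binds chromatin. Cdc6 and Cdt1 then load the MCM2-7 ring in G1 phase, a step called licensing, and geminin blocks Cdt1 once S phase has begun. Cdc45 and the GINS complex turn the loaded ring into an active helicase, polymerase alpha-primase lays down primers, and polymerases delta and epsilon extend them on the PCNA clamp, which the RFC complex loads. E2F transcription factors and their pocket protein partners control many of these genes through short promoter elements, so that their RNA rises as cells enter the cycle. In the mouse the fetal liver is where stem cells expand before birth, and its stem cells divide more often than those of adult marrow.

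The promoters of 6 members are shown because all 6 MCM2-7 genes were lower in the stem cell libraries than in WT KL, Gins3 was level, and Rrm2 had the largest difference of WT HSC from WT KL. RefSeq promoter windows on GRCm38.p6, 250 bases before to 50 bases after a start site, were found for 35 of the 43 members. None was found for Mcm4. Of MCM2-7, only windows that held a stretch marked below are printed, so the Mcm2 window is left out. Each printed window is written 5′ to 3′ along the gene's strand. Capitals mark the E2F-type stretches TTTGGCGC, TTTCGCGC and TTTCCCGC, which were searched on both strands and may overlap each other.
Mcm3 (chr1:20820263-20820562, minus strand): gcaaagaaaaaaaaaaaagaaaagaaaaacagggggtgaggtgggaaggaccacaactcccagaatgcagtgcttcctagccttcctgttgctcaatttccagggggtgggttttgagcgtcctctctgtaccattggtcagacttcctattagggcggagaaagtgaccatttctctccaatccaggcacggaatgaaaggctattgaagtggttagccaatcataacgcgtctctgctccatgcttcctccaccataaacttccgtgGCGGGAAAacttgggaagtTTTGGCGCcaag
Mcm5 (chr8:75109259-75109558, plus strand): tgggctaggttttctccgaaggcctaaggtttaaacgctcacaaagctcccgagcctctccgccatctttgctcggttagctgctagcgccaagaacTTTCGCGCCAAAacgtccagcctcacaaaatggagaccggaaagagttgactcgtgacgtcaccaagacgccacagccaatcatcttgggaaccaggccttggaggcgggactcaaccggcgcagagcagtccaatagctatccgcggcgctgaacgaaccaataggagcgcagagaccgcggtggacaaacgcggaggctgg
Mcm6 (chr1:128359656-128359955, minus strand): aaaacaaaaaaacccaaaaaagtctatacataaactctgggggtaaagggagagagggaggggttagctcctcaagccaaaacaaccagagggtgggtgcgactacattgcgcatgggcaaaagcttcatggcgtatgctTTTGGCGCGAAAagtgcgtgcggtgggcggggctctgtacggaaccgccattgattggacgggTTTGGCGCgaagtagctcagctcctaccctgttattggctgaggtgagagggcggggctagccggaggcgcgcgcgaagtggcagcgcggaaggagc
Mcm7 (chr5:138171834-138172133, minus strand): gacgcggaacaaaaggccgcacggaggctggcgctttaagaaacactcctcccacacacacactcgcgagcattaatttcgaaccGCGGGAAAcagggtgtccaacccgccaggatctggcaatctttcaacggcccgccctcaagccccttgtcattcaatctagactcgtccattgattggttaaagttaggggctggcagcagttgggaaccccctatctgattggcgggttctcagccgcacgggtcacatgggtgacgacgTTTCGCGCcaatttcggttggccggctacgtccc
Gins3 (chr8:95633309-95633608, plus strand): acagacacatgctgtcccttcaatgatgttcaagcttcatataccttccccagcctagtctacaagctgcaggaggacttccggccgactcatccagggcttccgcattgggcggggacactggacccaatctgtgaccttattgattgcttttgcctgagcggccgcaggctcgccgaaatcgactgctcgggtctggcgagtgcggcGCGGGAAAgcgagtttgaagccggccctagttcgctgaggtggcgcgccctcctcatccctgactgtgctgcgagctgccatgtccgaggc
Rrm2 (chr12:24708004-24708303, plus strand): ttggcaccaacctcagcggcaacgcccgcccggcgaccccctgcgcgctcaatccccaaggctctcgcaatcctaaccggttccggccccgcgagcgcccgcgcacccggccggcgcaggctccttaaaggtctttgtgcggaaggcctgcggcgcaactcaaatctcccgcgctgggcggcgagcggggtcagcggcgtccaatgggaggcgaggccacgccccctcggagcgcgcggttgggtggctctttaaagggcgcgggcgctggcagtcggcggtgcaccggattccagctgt

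In Mcm5 the marked stretch is TTTCGCGCCAAA, in which TTTCGCGC and a reverse-strand TTTGGCGC overlap, and it began 153 bases before the start site. Mcm6 had TTTGGCGCGAAA beginning 110 bases before the start and TTTGGCGC at 47 bases before it. The Mcm7 stretches began 165 bases before and 16 bases after the start, and a window at another Mcm7 start site held none. The Mcm3 stretches began 19 and 38 bases after the start. The Gins3 stretch began 41 bases before the start. The Rrm2 window held none of these stretches, and nor did the Mcm2 window, which is not printed. At least 1 of the 3 stretches was present in 13 of the 35 members with a window (37.1%) and in 573 of 27025 genes with a window (2.12%). The 13 members were Orc1, Orc3, Cdc6, Cdt1, Mcm3, Mcm5, Mcm6, Mcm7, Gins3, Pola1, Pold1, Rfc3 and Lig1. They included 8 of 22 windowed members that were called lower in WT HSC than in WT KL and 5 of 13 that were not called. The CCAAT box, searched the same way, was present in 21 of the 35 members (60%) and in 41.1% of genes. A match is a description of the letters in the window and was not tested against the expression values.

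Values are TPM, a length-scaled share of each library's transcripts that keeps no read depth. The depth is therefore unknown here. Between 18258 and 18806 genes reached 1 TPM in 6 libraries, and 15422 to 15819 did in WT KL replicates 2 and 3 and in the library labelled WT HSC replicate 3. Mecom levels of 209, 176 and 210 TPM were measured in Evi1 HSC, of 161 and 114 TPM in WT HSC replicates 1 and 2, and of 0.0107 and 0.325 TPM in WT KL replicates 2 and 3. No source used here says whether the Evi1 transgene contributed to Mecom values. For the library labelled WT HSC replicate 3, Mecom was 0.0167 TPM, Ly6a (Sca-1) was 0 and Mpo, a myeloid granule enzyme, was 579 TPM. For the library labelled WT KL replicate 1, these genes were 90.8, 19.7 and 13.6 TPM. These 2 libraries went against their labels and are called the exceptions labelled WT HSC and WT KL. Neither was moved to another group. Counts and medians are given over the 9 libraries as labelled and over the 7 libraries without them. Differences of single genes are over the 7 libraries unless the 9 are named.

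All 43 members reached 1 TPM in every library, from 3.47 TPM for Gins3 in WT HSC replicate 2 to 265 TPM for Mcm6 in WT KL replicate 2. Together they held 1863 to 1917 TPM in the Evi1 HSC libraries, 2104 and 1907 TPM in WT HSC replicates 1 and 2, and 3296 and 3230 TPM in WT KL replicates 2 and 3. Of the exceptions, that labelled WT HSC held 3107 TPM, next to the WT KL values, and that labelled WT KL 2015 TPM, among the stem cell values. The order of levels within a complex was largely shared. Mcm6 was the highest and Mcm2 the lowest of MCM2-7 in all 9 libraries, Gmnn exceeded Cdt1 and Cdt1 exceeded Cdc6 in all 9, Orc1 was the lowest ORC gene in all 9, and Pcna exceeded every RFC gene in all 9. Between the 2 WT KL libraries of the 7 the higher value was a median of 1.05 times the lower, and between the 2 WT HSC libraries 1.11 times. Over the 3 Evi1 HSC libraries the highest was a median of 1.22 times the lowest, which is not comparable because a range widens with the number of libraries. There Gins1 was the widest, at 3.72 times.

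**Figure D1:**
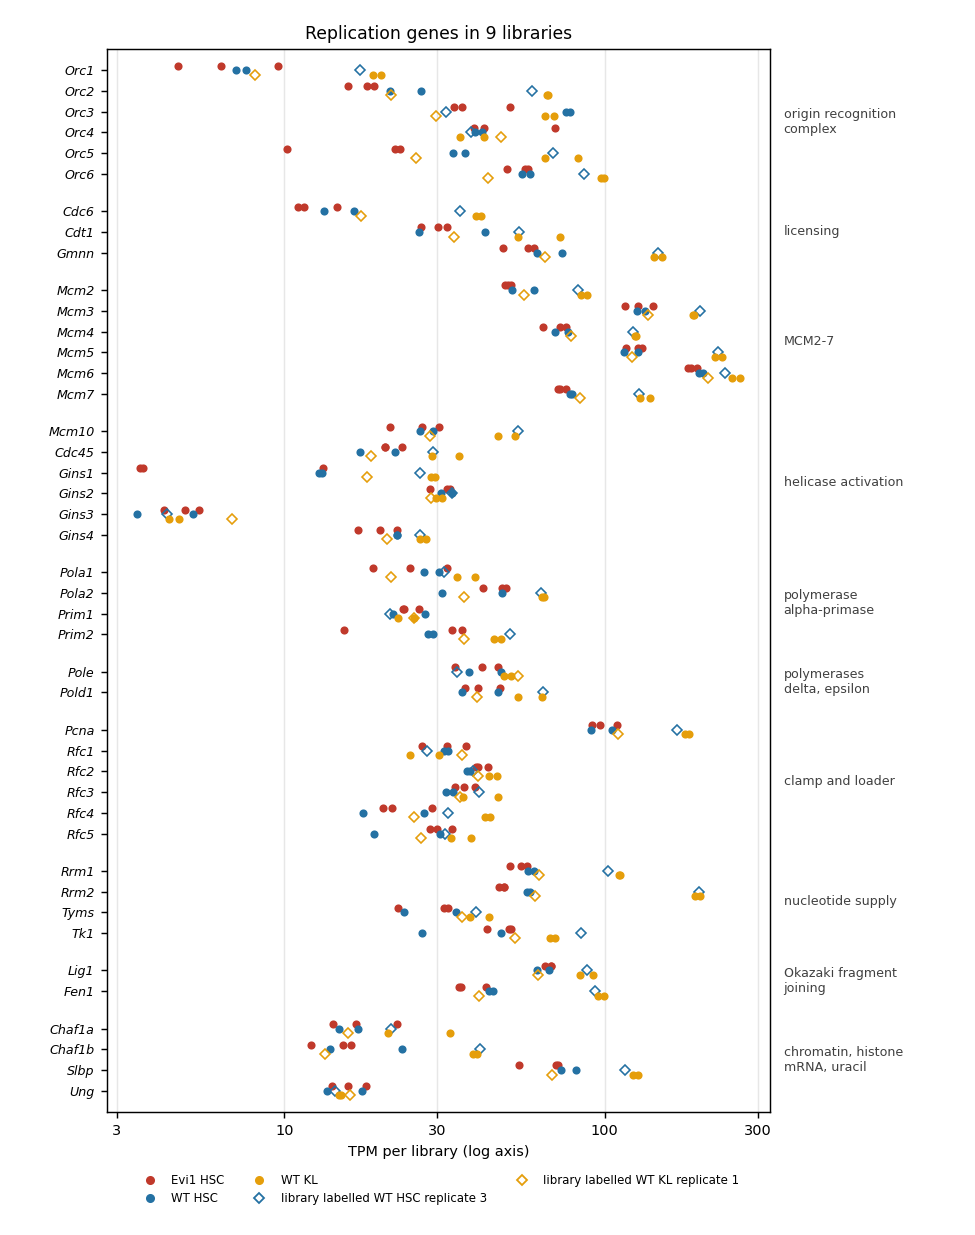
TPM of each of the 43 replication genes on a log axis, 1 point per library, grouped by role. Filled points are the 7 libraries and open diamonds the 2 that went against their labels. Among the filled points, WT KL lies to the right of both stem cell groups for most genes. Orc4, Gins2, Gins3, Prim1, Ung, Rfc1, Rfc3, Rfc5 and Chaf1a overlap WT KL in 1 or both stem cell groups. For Orc3, WT HSC lies to the right of WT KL.

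The comparison of WT HSC with WT KL asks how the machinery differs between the stem cell gate and committed progenitors. Over 7 libraries, 24 of 43 members were called lower in WT HSC and 0 higher (limma on log2(TPM + 1), Benjamini-Hochberg adjusted p under 0.05 over all 19461 genes tested). Of all tested genes, 37.5% were called in either direction, 10.8% lower and 26.7% higher. The median member difference was -0.69 on the log2 scale, a level 1.62-fold higher in WT KL, while the median over all tested genes was 0.26 in the other direction. In 36 members every WT HSC library lay below every WT KL library, which held for 25.2% of all tested genes. With the 9 libraries it held for 2 members and for 378 of the 19461 tested genes. With all 9 libraries as labelled, 0 members were called, and 1 of all tested genes (0.00514%) was. There the member differences ran from -0.60 to 0.16 with a median of -0.24, none had an unadjusted p under 0.05 (282 of all tested genes did), and their adjusted p values ran from 0.963 to 0.989. The 9-library adjusted p of each member named below for this comparison lies in that range.

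The comparison of Evi1 HSC with WT KL uses the same WT KL libraries, so its values are set beside the others and are no independent repeat. Over 7 libraries, 26 members were called lower in Evi1 HSC and 0 higher, with a median difference of -0.75, a level 1.69-fold higher in WT KL. All tested genes were called at 45.5%, with 14.3% lower and 31.3% higher, and had a median of 0.28. Every Evi1 HSC library lay below every WT KL library for 34 members, against 22.9% of all tested genes. With the 9 libraries as labelled it held for 17 members and for 1946 of the 19461 tested genes. With 9 libraries, 0 members and 0.0103% of tested genes were called. The members' median was -0.44, their adjusted p values ran from 0.310 to 0.998, and 16 had an unadjusted p under 0.05, as did 2956 of all tested genes.

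The count for WT HSC against WT KL depended on which libraries were kept. It fell to 13 without WT HSC replicate 2, to 12 without WT KL replicate 2 and to 14 without WT KL replicate 3, and it was 16 with the replicate number as a block. The 12 members called in all 15 alternatives were Orc2, Orc6, Cdc6, Gmnn, Mcm2, Mcm4, Mcm5, Mcm7, Pcna, Rrm1, Rrm2 and Fen1. Of the others, Mcm3 was not called in 5 alternatives, Chaf1b and Slbp in 4 each, Orc1 in 3 and Mcm10 in 2, and the losses of the rest stand beside their values. In Evi1 HSC against WT KL, 18 were called in all 15: Orc1, Orc2, Orc5, Orc6, Cdc6, Gmnn, Mcm2, Mcm4, Mcm5, Mcm6, Mcm7, Mcm10, Pcna, Rrm1, Rrm2, Fen1, Chaf1b and Slbp. In a bulk library, fewer cells in S phase and less RNA of these genes per cell cannot be told apart. Markers of some other cell types moved with the gates. The sum of the 7 erythroid markers did not, at 654 to 1689 TPM in the 5 stem cell libraries and 905 and 932 TPM in WT KL. A sum mostly reflects its highest genes. Of these markers, 4 reached 1 TPM in all Evi1 HSC libraries, against 7 in the WT HSC and WT KL libraries kept. Over the 9 libraries as labelled, 6 were lower in WT HSC than in WT KL and 1 was higher, and limma called 0. Sums for 4 megakaryocyte markers were 21.8 to 34.9 TPM in the stem cell libraries and 4.69 and 5.47 TPM in WT KL. Those for 4 endothelial markers were 36.2 to 81.3 TPM and 2.61 and 4.33 TPM. The 7 stem cell markers summed to 507 to 666 TPM in the 5 stem cell libraries and to 2.0 and 3.57 TPM in the WT KL libraries of the 7, and the 7 granulocyte markers to 24.9 to 39.6 TPM and to 607 and 2062 TPM, with Ctsg, S100a8 and S100a9 at 0 in the stem cell libraries. Their part in the member differences, and that of the lower number of genes at 1 TPM in WT KL, was not tested.

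**Figure D2:**
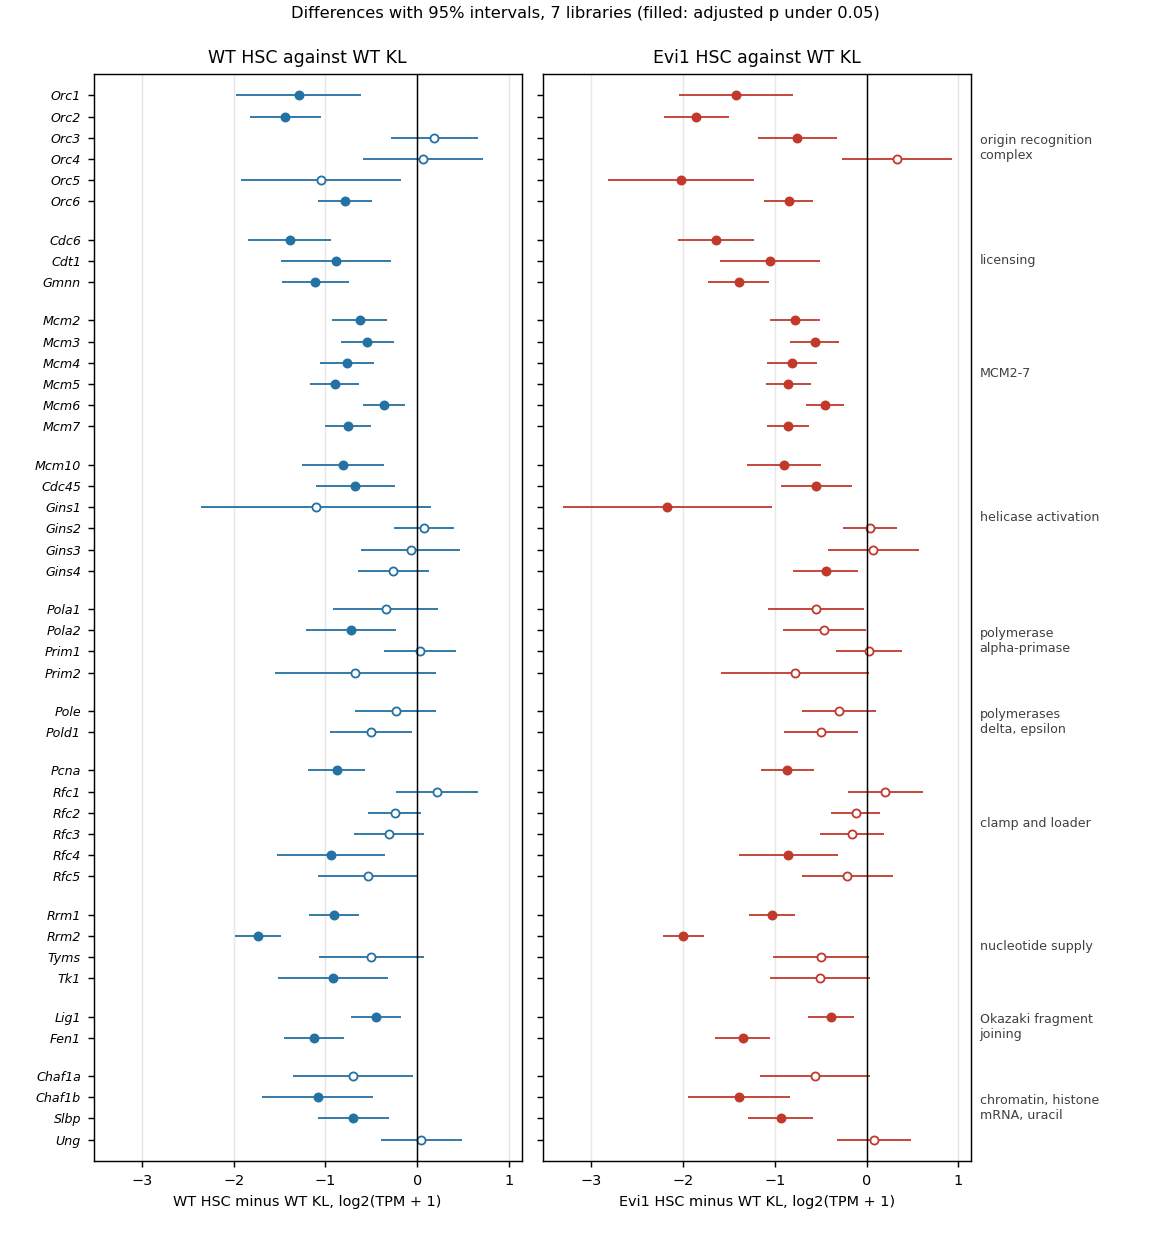
Log2 difference of each member from WT KL over 7 libraries, WT HSC on the left and Evi1 HSC on the right, with 95% intervals from limma, in log2(TPM + 1). Filled points passed an adjusted p under 0.05; 24 and 26 members did, all of them to the left of 0.

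ORC genes divided into those that differed between the gates and those that did not pass the test. Orc2, a core ORC subunit at chr1:58462771-58505109 (minus strand), was 19.0, 18.2 and 15.8 TPM in Evi1 HSC, 26.7 and 21.3 TPM in WT HSC and 66.3 and 66.2 TPM in WT KL. The exceptions labelled WT HSC and WT KL held 59.1 and 21.6 TPM. The stem cell libraries and the WT KL libraries did not overlap among the 7. WT HSC was lower by 2.71-fold (log2 difference -1.44, SE 0.16, adjusted p = 9.9e-04), and Evi1 HSC by 3.62-fold (log2 difference -1.85, SE 0.15, adjusted p = 1.6e-04). Orc4, another core subunit (chr2:48902824-48950277, minus strand), was 69.9, 42.0 and 39.1 TPM in Evi1 HSC, 39.3 and 41.5 TPM in WT HSC, and 42.0 and 35.3 TPM in WT KL. Its libraries overlapped in all 3 groups, and the exceptions held 38.4 and 47.6 TPM. The WT HSC difference from WT KL was 0.07 with an interval of -0.59 to 0.72. In the 9-library fit the WT HSC and Evi1 HSC differences were -0.49 and -1.33 for Orc2 and -0.06 and 0.23 for Orc4. Orc1, the subunit whose level is tied to the cell cycle, and Orc6 were also called lower in WT HSC, Orc5 was at -1.04 with an adjusted p of 0.063, and Orc3 was at 0.19 with both WT HSC libraries above both WT KL libraries. In Evi1 HSC, 5 of 6 ORC genes were called lower than in WT KL, all but Orc4. Without WT KL replicate 2 or replicate 3 the Orc3 call in Evi1 HSC was lost, with an adjusted p of up to 0.083.

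All 3 licensing genes were called lower in each stem cell group. Cdc6, the ATPase that loads MCM2-7 with Cdt1, lies at chr11:98907801-98923940 (plus strand). It was 11.5, 14.6 and 11 TPM in Evi1 HSC, 16.5 and 13.3 TPM in WT HSC, and 39.6 and 41.2 TPM in WT KL. No stem cell library of the 7 reached the WT KL values, and the exceptions labelled WT HSC and WT KL held 35.3 and 17.4 TPM. WT HSC was 2.62-fold lower than WT KL (log2 difference -1.39, SE 0.19, adjusted p = 0.0020) and Evi1 HSC 3.12-fold lower (-1.64, SE 0.17, adjusted p = 4.7e-04). Cdt1, its loading partner at chr8:122568015-122573554 (plus strand), was 26.6, 32.2 and 30.2 TPM in Evi1 HSC, 42.2 and 26.3 TPM in WT HSC, and 72.5 and 53.5 TPM in WT KL. Neither stem cell group overlapped WT KL, the Evi1 HSC values lay within the WT HSC range, and the WT HSC and WT KL libraries each spread more widely than for Cdc6. Its difference was -0.88 (SE 0.25, adjusted p = 0.032) in WT HSC and -1.05 (SE 0.23, adjusted p = 0.0098) in Evi1 HSC, and the WT HSC call was lost in 7 of 15 alternatives. Cdt1 was 54.0 TPM in the WT HSC exception and 33.9 TPM in the WT KL exception. Gmnn, which encodes the Cdt1 inhibitor geminin, fell by 1.11 and 1.40 on the log2 scale in WT HSC and Evi1 HSC relative to WT KL. With 9 libraries the WT HSC and Evi1 HSC differences were -0.60 and -1.25 for Cdc6, -0.37 and -0.76 for Cdt1 and -0.36 and -1.01 for Gmnn.

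All 6 MCM2-7 genes, which encode the ring of the replicative helicase, were called lower in each stem cell group than in WT KL. The promoters of Mcm3, Mcm5, Mcm6 and Mcm7 are printed above. Their summed level was 613 to 652 TPM in Evi1 HSC, 680 and 636 TPM in WT HSC, and 1025 and 1009 TPM in WT KL. The sum was 994 TPM in the exception labelled WT HSC and 687 TPM in that labelled WT KL. Mcm5 (chr8:75109569-75128439, plus strand) had the largest difference of the 6 in WT HSC. It was 131, 127 and 117 TPM in Evi1 HSC, 127 and 115 TPM in WT HSC and 220 and 232 TPM in WT KL, with 226 and 122 TPM in the exceptions, in the same order. WT HSC was 1.86-fold lower (log2 difference -0.90, SE 0.11, adjusted p = 0.0014) and Evi1 HSC 1.80-fold lower (-0.85, SE 0.10, adjusted p = 8.0e-04). Mcm6 (chr1:128331590-128359664, minus strand) had the smallest. It was 182, 186 and 194 TPM in Evi1 HSC, 203 and 196 TPM in WT HSC and 265 and 249 TPM in WT KL, with 237 and 210 TPM in the exceptions. The groups did not overlap, and the difference was 1.28-fold in WT HSC (-0.36, SE 0.09, adjusted p = 0.024) and 1.37-fold in Evi1 HSC (-0.46, SE 0.09, adjusted p = 0.0054). The WT HSC call of Mcm6 was lost in 8 of 15 alternatives, quantile normalization among them. Mcm2, Mcm3, Mcm4 and Mcm7 ran from -0.54 to -0.76 in WT HSC, between Mcm6 and Mcm5, and from -0.57 to -0.85 in Evi1 HSC, where Mcm7 and Mcm5 were level. As labelled, the 9 libraries gave -0.31 and -0.56 for Mcm5 and -0.18 and -0.36 for Mcm6.

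Helicase activation genes were mixed. Mcm10, which helps to start the loaded helicase, and Cdc45, a part of the active helicase, were called lower in WT HSC, by 0.81 and 0.67 on the log2 scale, and the Cdc45 call was lost in 4 of 15 alternatives. Gins1 (chr2:150905400-150931280, plus strand), a GINS subunit, was 3.62, 13.2 and 3.55 TPM in Evi1 HSC, 12.8 and 13.1 TPM in WT HSC, and 29.4 and 28.8 TPM in WT KL. Evi1 HSC replicate 2 stood with the WT HSC libraries while the other 2 Evi1 HSC libraries were lower. In the exceptions labelled WT HSC and WT KL it was 26.5 and 18.1 TPM. Its differences from WT KL were -1.11 in WT HSC (SE 0.53, adjusted p = 0.14) and -2.17 in Evi1 HSC (SE 0.48, adjusted p = 0.010), and the Evi1 HSC call was lost without WT KL replicate 2 or replicate 3. Gins3 (chr8:95633453-95645060, plus strand), another subunit of the same complex, was 4.89, 5.43 and 4.20 TPM in Evi1 HSC, 5.20 and 3.47 TPM in WT HSC, and 4.37 and 4.69 TPM in WT KL. It overlapped in all groups, was 4.29 and 6.85 TPM in the exceptions, and differed by -0.07 in WT HSC with an interval of -0.61 to 0.47. Gins2 likewise overlapped, at 28.5 to 33.5 TPM over all 9 libraries. Gins4 was called lower in Evi1 HSC only by a narrow margin (-0.44, adjusted p = 0.047), and its call was lost in 10 of 15 alternatives. As labelled, the 9 libraries put the WT HSC and Evi1 HSC differences from WT KL at -0.56 and -1.95 for Gins1 and -0.24 and -0.10 for Gins3.

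Polymerase genes mostly did not pass the test. Pola2, the accessory subunit of polymerase alpha (chr19:5940542-5964202, minus strand), was 49.2, 47.9 and 41.8 TPM in Evi1 HSC, 47.7 and 31.0 TPM in WT HSC, and 64.4 and 63.5 TPM in WT KL. The stem cell libraries did not overlap WT KL, and WT HSC replicate 2 was the lowest. Values of 63.2 and 36.4 TPM stood in the exceptions labelled WT HSC and WT KL. Pola2 was called lower in WT HSC (-0.72, SE 0.21, adjusted p = 0.033), a call lost in 7 of 15 alternatives, and was not called in Evi1 HSC (-0.46, adjusted p = 0.087). Prim1, the catalytic primase subunit (chr10:128015168-128030037, plus strand), was 23.7, 26.3 and 23.5 TPM in Evi1 HSC, 27.6 and 21.8 TPM in WT HSC and 25.4 and 22.7 TPM in WT KL. All groups overlapped, and the WT HSC difference was 0.03 with an interval of -0.36 to 0.42. The 2 libraries against their labels held 21.3 and 25.4 TPM of Prim1. Pold1 and Pole, the catalytic subunits of polymerases delta and epsilon, were not called. Pold1 was 47.0, 40.2 and 36.6 TPM in Evi1 HSC, 46.5 and 35.9 TPM in WT HSC and 53.6 and 63.5 TPM in WT KL, and its differences were -0.50 in each stem cell group (adjusted p = 0.074 and 0.051). Pole was 46.4, 34.2 and 41.3 TPM, 47.6 and 37.6 TPM, and 51.1 and 48.6 TPM in the same order, with a WT HSC difference of -0.23 and an interval of -0.67 to 0.21. In both genes every stem cell library of the 7 lay below the WT KL libraries. In the exceptions labelled WT HSC and WT KL, Pold1 was 64.3 and 39.9 TPM and Pole 34.5 and 53.5 TPM. The 9-library WT HSC differences were -0.22 for Pola2, -0.06 for Prim1, -0.11 for Pold1 and -0.36 for Pole.

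Of the clamp and its loader, Pcna and Rfc4 were called and the other RFC genes were not. Pcna (chr2:132249162-132253314, minus strand) ran from 90.6 to 109 TPM over the 5 stem cell libraries and was 178 and 183 TPM in WT KL, a WT HSC difference of -0.88 (SE 0.13, adjusted p = 0.0029). It was 169 and 110 TPM in the exceptions labelled WT HSC and WT KL. A processed copy, Pcna-ps2, was listed at 19.4 to 43.2 TPM, so reads of near-identical sequence may have been divided between the pair. Rfc4, a small loader subunit (chr16:23113943-23127737, minus strand), was 21.7, 20.4 and 28.9 TPM in Evi1 HSC, 27.4 and 17.6 TPM in WT HSC and 43.8 and 42.2 TPM in WT KL. The stem cell groups overlapped each other and neither reached WT KL, and the exceptions labelled WT HSC and WT KL held 32.4 and 25.4 TPM. The difference was -0.94 in WT HSC (SE 0.25, adjusted p = 0.024) and -0.85 in Evi1 HSC (SE 0.23, adjusted p = 0.020), and each call was lost in 5 of 15 alternatives. Rfc1, the large loader subunit (chr5:65261850-65335670, minus strand), was 32.2, 26.8 and 36.8 TPM in Evi1 HSC, 31.5 and 32.4 TPM in WT HSC and 30.4 and 24.6 TPM in WT KL. Both WT HSC libraries were above both WT KL libraries, and the difference of 0.22 had an interval of -0.23 to 0.66. For the exceptions labelled WT HSC and WT KL the values were 27.9 and 35.9 TPM. Within the complex, Rfc4 was the lowest of the 5 RFC genes in the 5 stem cell libraries, and Rfc1 was the lowest in WT KL replicates 2 and 3. With the 9 libraries, WT HSC differed from WT KL by -0.38 for Pcna, -0.51 for Rfc4 and 0.03 for Rfc1.

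The largest difference of any member between WT HSC and WT KL was in nucleotide supply. Rrm2 (chr12:24708241-24714146, plus strand) encodes the small subunit of ribonucleotide reductase, the enzyme that makes deoxynucleotides, and is known to be limited to cells in S phase. It was 48.5, 46.7 and 48.5 TPM in Evi1 HSC, 57.1 and 58.3 TPM in WT HSC, and 198 and 191 TPM in WT KL. The exception labelled WT HSC held 197 TPM and that labelled WT KL 60.4 TPM. Replicates lay close together and the WT KL libraries stood far above the rest. WT HSC was 3.33-fold lower (log2 difference -1.74, SE 0.10, adjusted p = 1.1e-04) and Evi1 HSC 4.0-fold lower (-2.0, SE 0.10, adjusted p = 3.3e-05), where Gins1 at -2.17 and Orc5 at -2.02 differed more. The Rrm2 differences were -0.59 and -1.44 over the 9 libraries. Rrm1, the large subunit, fell by 0.91 in WT HSC and by 1.03 in Evi1 HSC on the log2 scale. Tk1, the thymidine salvage kinase, was called lower in WT HSC (-0.92, adjusted p = 0.028), where its libraries held 26.9 and 47.4 TPM, and not in Evi1 HSC (-0.51, adjusted p = 0.11). The WT HSC call of Tk1 was lost in 7 of 15 alternatives, the difference was -0.39 over the 9 libraries, and the exceptions labelled WT HSC and WT KL held 84.6 and 52.6 TPM. Tyms, which makes thymidylate (chr5:30058202-30073617, minus strand), was 32.4, 31.4 and 22.6 TPM in Evi1 HSC, 34.2 and 23.6 TPM in WT HSC and 38.1 and 43.6 TPM in WT KL. The WT KL libraries were the highest of the 7, but the WT HSC difference of -0.50 was not called (interval -1.08 to 0.07). Tyms was 39.5 and 35.7 TPM in the exceptions labelled WT HSC and WT KL.

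Okazaki fragments are trimmed by Fen1 and sealed by Lig1, and both genes were called lower in each stem cell group. Fen1 (chr19:10199132-10204169, minus strand) was 35.1, 42.7 and 35.5 TPM in Evi1 HSC, 43.5 and 44.8 TPM in WT HSC and 99.8 and 95.1 TPM in WT KL, with 93.1 and 40.5 TPM in the exceptions labelled WT HSC and WT KL. Its WT KL libraries stood apart from all others of the 7. WT HSC was 2.18-fold lower (-1.12, SE 0.14, adjusted p = 0.0014) and Evi1 HSC 2.55-fold lower (-1.35, SE 0.13, adjusted p = 2.9e-04). Of the 2422 exonic bases of Fen1, 2039 are shared with Gm10143 and Tmem258, and whether counting used strand is not given, so its value is uncertain. Lig1 (chr7:13277283-13311433, plus strand) was 64.9, 68.0 and 67.7 TPM in Evi1 HSC, 66.8 and 61.4 TPM in WT HSC and 91.9 and 84.0 TPM in WT KL. The stem cell groups overlapped each other and not WT KL, the exceptions held 87.9 and 61.8 TPM, and the difference was 1.37-fold in WT HSC (-0.45, SE 0.11, adjusted p = 0.022) and 1.31-fold in Evi1 HSC (-0.39, SE 0.10, adjusted p = 0.022). Each Lig1 call was lost in 6 of 15 alternatives. The 9 libraries as labelled gave -0.36 and -0.94 for Fen1 and -0.13 and -0.22 for Lig1.

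Among genes of chromatin assembly, histone RNA and uracil removal, Chaf1b and Slbp were called lower in each stem cell group. Chaf1b, a subunit of the CAF-1 histone chaperone (chr16:93883901-93906115, plus strand), was 12.1, 15.3 and 16.1 TPM in Evi1 HSC, 23.4 and 13.9 TPM in WT HSC and 40.0 and 38.9 TPM in WT KL. WT HSC replicate 1 was the highest stem cell library, and none reached the WT KL values. The WT HSC and WT KL exceptions held 40.7 and 13.4 TPM. The difference was 2.12-fold in WT HSC (-1.09, SE 0.26, adjusted p = 0.016) and 2.63-fold in Evi1 HSC (-1.39, SE 0.23, adjusted p = 0.0032). Slbp, which binds the stem loop of histone mRNA, fell by 0.69 and by 0.94 on the log2 scale. Ung, the uracil DNA glycosylase (chr5:114130386-114139323, plus strand), was 14.1, 15.8 and 17.9 TPM in Evi1 HSC, 17.5 and 13.6 TPM in WT HSC and 14.8 and 15 TPM in WT KL. Its groups overlapped, it was 14.4 and 16.1 TPM in the exceptions, and its WT HSC difference of 0.04 had an interval of -0.40 to 0.49. Chaf1b differed by -0.21 and -0.90 over the 9 libraries, and Ung by -0.02 and 0.05.

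**Figure D3:**
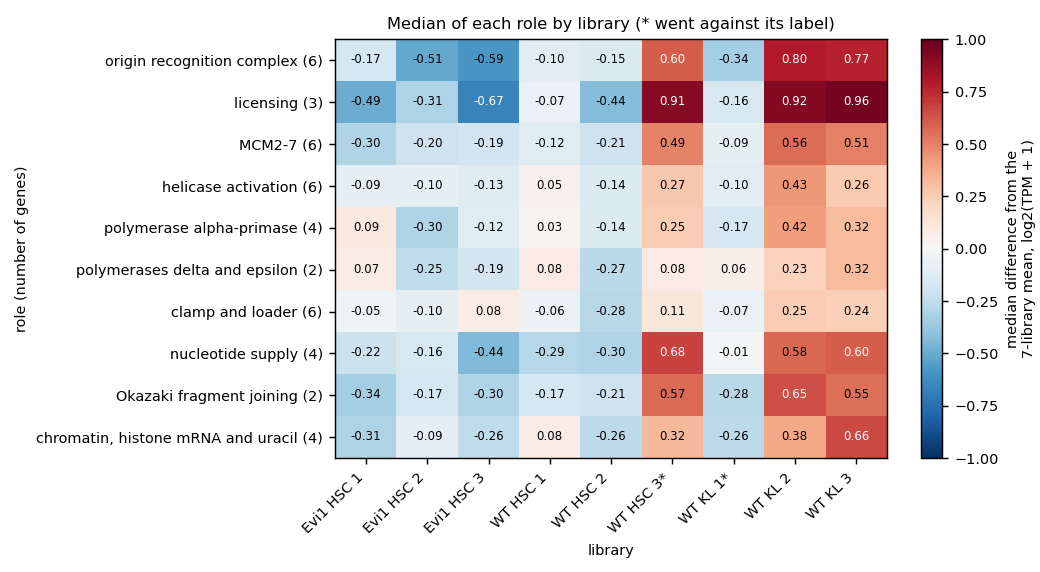
Median difference of the genes of each role from their mean over the 7 libraries, in log2(TPM + 1), for each library; blue is lower and red higher, and the number of genes is in brackets. Licensing reached 0.92 and 0.96 in WT KL replicates 2 and 3, polymerases delta and epsilon 0.23 and 0.32. The asterisks mark the libraries that went against their labels; the one labelled WT HSC was at 0.91 in licensing and at 0.08 in polymerases delta and epsilon.

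Unequal differences changed the proportions of partner genes within a library. The TPM ratio of Rrm2 to Rrm1 was 0.847, 0.853 and 0.959 in Evi1 HSC, 0.946 and 1.01 in WT HSC, and 1.78 and 1.71 in WT KL. Rrm2 thus stood below or level with Rrm1 in the stem cell libraries and above it in WT KL. The ratio was 1.92 in the exception labelled WT HSC and 0.971 in that labelled WT KL. Fen1 to Lig1 was 0.525 to 0.628 in Evi1 HSC, 0.651 and 0.729 in WT HSC, and 1.09 and 1.13 in WT KL, so the order of these genes was opposite in the gates. Gmnn to Cdt1, the inhibitor to its target, was 1.60 to 2.16 in Evi1 HSC, 1.74 and 2.33 in WT HSC, and 1.96 and 2.82 in WT KL, and the groups overlapped. No test was run on these ratios, and a ratio does not show which of its genes changed.

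**Figure D4:**
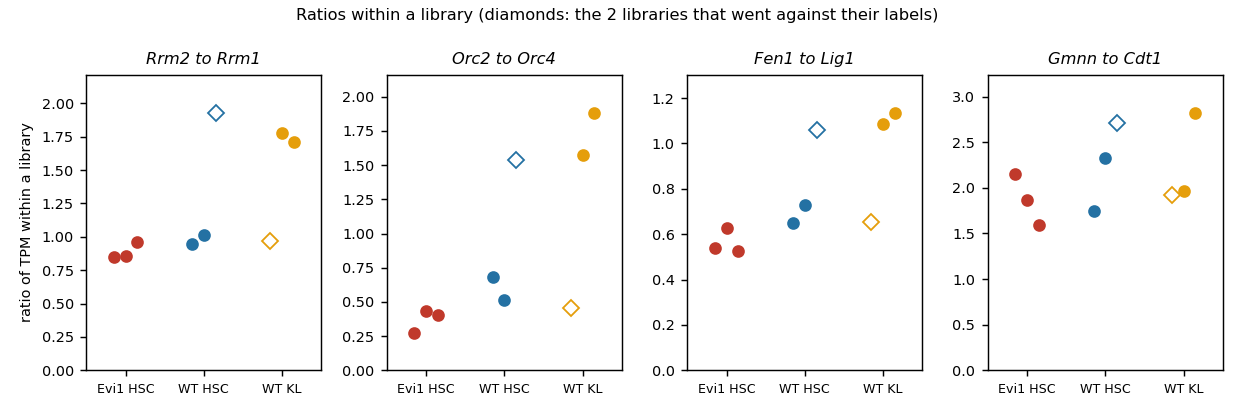
TPM ratios of 4 gene pairs within each library, in linear units from 0, with 1 point per library and open diamonds for the 2 libraries that went against their labels. Rrm2 to Rrm1, Orc2 to Orc4 and Fen1 to Lig1 are higher in the filled WT KL points than in every filled stem cell point, while Gmnn to Cdt1 overlaps. Orc2 and Orc4 are the ORC genes with the largest and the smallest WT HSC difference from WT KL, so their ratio adds no separate result. Ratios of other pairs, such as Pcna to Rfc1, were taken and are not drawn.

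Setting Evi1 HSC against WT HSC asks how stem cells with induced Evi1 differ from those without. These groups also differ in Tie2-Cre and in the GFP+ gate, which cannot be told apart from Evi1 induction here. Over 7 libraries, 0 of 43 members were called by limma, with 0.206% of all tested genes called (40 genes). At an unadjusted p under 0.05 there were 4 members, Orc2, Orc3, Orc5 and Rrm2, and 1635 of all tested genes. The median member difference was -0.06, beside 0.00 for all tested genes, with 27 members negative and 16 positive. In 30 members the groups overlapped. All Evi1 HSC libraries were lower than both WT HSC libraries in 11 members, beside 12.3% of tested genes, and higher in 2 members (Rfc2 and Rfc3), beside 11.8%. The 95% interval lay within 1 log2 unit of 0 for 40 of 43 members and within 0.5 for 19. For MCM2-7 the differences ran from -0.15 to 0.05, and the interval of Mcm5 was -0.19 to 0.29. Over the 9 libraries as labelled, 0 members and 0.00514% of tested genes were called. The median was -0.25, with adjusted p values of 0.791 to 0.998, and 2 members and 907 of all tested genes were at an unadjusted p under 0.05. All Evi1 HSC libraries were then lower than all WT HSC libraries in 10 members and higher in 1. Of the 19461 tested genes, 1315 were lower and 1788 higher in this way.

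Orc3, Orc5 and Gins1 were the members whose intervals passed 1 log2 unit in this comparison, and were singled out after their values were seen. Orc3, a core ORC subunit (chr4:34570796-34614944, minus strand), was 50.6, 35.9 and 33.9 TPM in Evi1 HSC, against 75.6 and 77.9 TPM in WT HSC, and WT KL held 65.0 and 69.6 TPM. The groups did not overlap and the difference was -0.94 (interval -1.37 to -0.51, adjusted p = 0.16), the smallest adjusted p of any member. Orc3 was 32.0 and 29.8 TPM in the exceptions labelled WT HSC and WT KL, so each was below all libraries of the 7. Orc5 (chr5:22486485-22550429, minus strand) was 10.2, 22.1 and 23.0 TPM in Evi1 HSC, against 36.7 and 33.6 TPM in WT HSC, with 82.8 and 65.2 TPM in WT KL. Its difference was -0.98 (interval -1.77 to -0.18, adjusted p = 0.50), and Evi1 HSC replicate 1 was the lowest library. It was 69.0 and 25.7 TPM in the exceptions labelled WT HSC and WT KL. Gins1 differed by -1.07 (interval -2.21 to 0.08, adjusted p = 0.62). Rrm2 was lower in all 3 Evi1 HSC libraries than in both WT HSC libraries, by 1.20-fold (-0.26, interval -0.49 to -0.04, adjusted p = 0.53). The 9-library differences were -0.53 for Orc3, -1.29 for Orc5, -1.39 for Gins1 and -0.85 for Rrm2. Some erythroid markers differed between these groups, and the 7 did not all go in 1 direction. Over the 9 libraries as labelled, 6 were lower in Evi1 HSC and 1 was higher, and limma called 0. An unadjusted p under 0.05 was found for 5 of the 7 markers and for 907 of all tested genes. All Evi1 HSC libraries lay below all WT HSC libraries for 4 of the 7 markers and above them for 1, and 2 overlapped. Gata1 was 2.79 to 4.20 TPM in Evi1 HSC, against 17.3 and 18.2 TPM in WT HSC, and Klf1 was 0.11 to 2.51 TPM and 23.1 and 21.1 TPM. The sums of the 7 erythroid markers overlapped, at 694 to 1689 TPM and at 654 and 797 TPM. Their part in the member values was not tested.

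**Figure D5:**
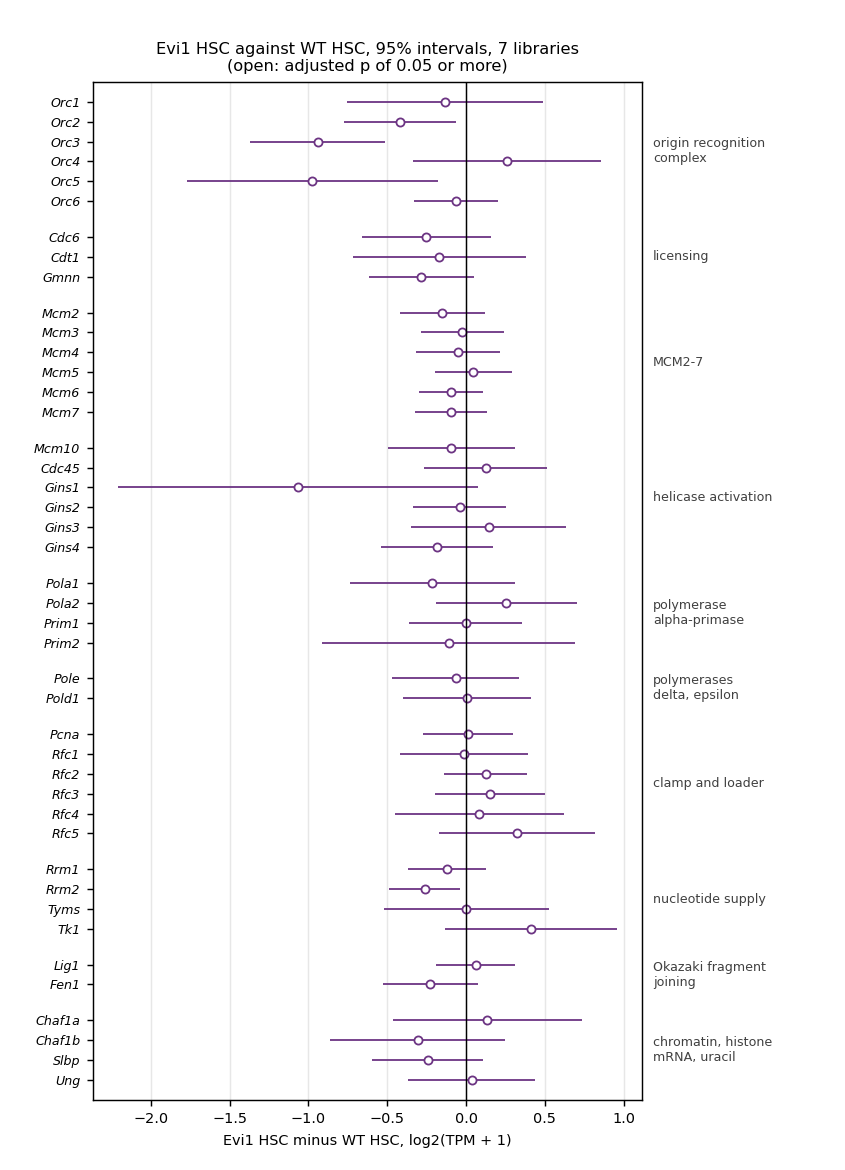
Log2 difference of Evi1 HSC from WT HSC over 7 libraries for each member, with 95% intervals from limma, in log2(TPM + 1). All points are open because none passed an adjusted p under 0.05; most lie near 0, and Orc3, Orc5 and Gins1 lie farthest to the left.

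Another 45 genes of DNA replication, in 6 lists that hold none of the 43 members, were looked up for the same comparisons. Over 7 libraries, 19 were called lower and 3 higher in WT HSC than in WT KL, with a median difference of -0.52. Of all tested genes 10.8% were called lower and 26.7% higher there, with a median of 0.26. In Evi1 HSC against WT KL, 20 of the 45 were called lower and 4 higher, with a median of -0.48. The shares of all tested genes were 14.3% and 31.3%, with a median of 0.28. None of the 45 was called in Evi1 HSC against WT HSC, where 1 had an unadjusted p under 0.05. Over the 9 libraries as labelled the medians were -0.20 for WT HSC and -0.37 for Evi1 HSC against WT KL, none of the 45 was called in any of the 3 comparisons, and 11 had an unadjusted p under 0.05 in Evi1 HSC against WT KL, with 0 in each of the others. Asf1b, a histone chaperone of dividing cells, was 9.82, 16.8 and 15.1 TPM in Evi1 HSC, 15.7 and 12.3 TPM in WT HSC and 51.7 and 51.1 TPM in WT KL, a WT HSC difference of -1.81 (SE 0.26, adjusted p = 0.0024). It showed the largest fall of the 45 in WT HSC. Asf1b was 50.4 and 20.3 TPM in the WT HSC and WT KL exceptions, and its 9-library difference was -0.79. Recql4 (-1.37) and Mcm8 (-0.95) led the other licensing and firing genes, and Tipin (-1.02) and Rpa3 (-0.94) the single-strand binding and fork genes, of which 8 of 13 were called lower. Of the other polymerase subunits Pole3 was called lower (-0.87) and Pold4 was not called (1.24, adjusted p = 0.054). Of the 4 alternative clamp loader genes none was called in WT HSC, with Dscc1 at -0.80 and Chtf18 at -0.62.

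Nucleotide supply outside the 43 members went in both directions. Dut, the dUTPase that keeps uracil out of DNA, was 27.5, 25.4 and 23.0 TPM in Evi1 HSC, 33.4 and 28.1 TPM in WT HSC and 85.6 and 74.1 TPM in WT KL, and was called lower in WT HSC (-1.35, SE 0.16, adjusted p = 0.0011). The exceptions labelled WT HSC and WT KL held 74.0 and 31.4 TPM of Dut, and its difference was -0.50 over the 9 libraries. Samhd1, which breaks down deoxynucleotides, was 80.9, 104 and 105 TPM in Evi1 HSC, 70.9 and 97.3 TPM in WT HSC, and 28.3 and 26.5 TPM in WT KL. It was called higher in WT HSC (1.57, SE 0.20, adjusted p = 0.0015) and in Evi1 HSC (1.77, SE 0.18, adjusted p = 4.2e-04), so the gene that removes deoxynucleotides and Rrm2, which makes them, lay in opposite directions. Samhd1 was 25.1 and 95.4 TPM in the WT HSC and WT KL exceptions, with a 9-library difference of 0.42 in WT HSC. Mcm9 and Shmt1 were the other genes called higher in WT HSC, at 0.77 and 0.57.

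Member levels were also compared between each of the 2 libraries that went against their labels and the remaining WT libraries. The exception labelled WT HSC was nearer to the mean of WT KL replicates 2 and 3 than to that of WT HSC replicates 1 and 2 for 38 of 43 members, all but Gins2, Gins3, Pola1, Pole and Rfc2. That labelled WT KL was nearer to the WT HSC mean for 36 of 43, all but Orc3, Gins2, Gins3, Prim2, Pole, Tyms and Tk1. The share of all tested genes nearer in this way was not computed, so these counts show no trait of the members. Over all tested genes, the exception labelled WT HSC correlated at 0.97 with both WT KL libraries and at 0.84 and 0.82 with WT HSC replicates 1 and 2. That labelled WT KL correlated at 0.83 with both WT KL libraries and at 0.95 and 0.96 with these WT HSC libraries. Other members that share exonic bases with a neighbour are also uncertain. After Fen1 the largest shares are 2758 of 4097 for Gins2 with Gse1, 4648 of 8854 for Chaf1a with Ubxn6, and 1150 of 3857 for Orc2 with Nif3l1. Smaller shares, from 78 bases in Pole to 952 in Rfc2, are also found in Orc1, Orc4, Orc5, Orc6, Mcm7, Cdc45, Rfc4, Rfc5, Tk1, Lig1 and Slbp.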

How the data were processed

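RNA sequencing libraries of 100 sorted cells were deposited as 1 table per library. The deposited values are TPM per gene, per the file headers, and in the table of WT HSC replicate 2 the value column has another heading and was used as TPM. The submitters' processing notes name HISAT2, StringTie and mm10. No version, annotation, strand setting or role of either tool is stated there. TPM keeps no depth, so no count model or counting interval was used, and because each library sums to a fixed total, a gene that rises lowers the others. Listed genes held 56.9 to 63.8% of that total.

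The test covered 19461 of 55488 genes, those reaching 1 TPM in 3 or more of 9 libraries. It used limma 3.58.1 (R 4.3.3) on log2(TPM + 1), with a mean per group, a variance trend and Benjamini-Hochberg adjustment over all tested genes. The threshold for a call was an adjusted p under 0.05. Folds are on the log2(TPM + 1) scale and understate changes of low genes. The fit was tested on simulated data. All tests were two-sided. Of the fits, 1 took the 9 libraries as labelled and the other left out the libraries labelled WT HSC replicate 3 and WT KL replicate 1. Gene positions are from the GENCODE annotation of GRCm38.

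The 43 members, the 45 other replication genes and all other lists were chosen with earlier results of these data known, so no list was tested as a set. Values per library are given in each role for the members with the largest and the smallest WT HSC difference from WT KL over 7 libraries, and each other list is named by its 2 largest. The alternatives were a pseudocount of 0.1, no filter, a filter of 5 TPM, listed genes rescaled to the same total, quantile normalization, the replicate number as a block, the compared groups only, no variance trend, and each library left out.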

Additional observations from a re-analysis of the deposited data

How the results depend on the processing

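Over 7 libraries no called member changed sign in any of the 15 alternatives, and no member was called in Evi1 HSC against WT HSC in any of them. Members not called did change sign in at least 1 alternative, 23 in Evi1 HSC against WT HSC, 4 in WT HSC against WT KL and 5 in Evi1 HSC against WT KL. Quantile normalization moved the median of all tested genes from 0.26 to -0.10 in WT HSC against WT KL and from 0.28 to -0.08 in Evi1 HSC against WT KL. It moved the member medians to -0.54 and -0.58 and left 17 and 24 members called, so part of the distance between members and other genes rested on the scaling. With libraries left out in turn, the members called in WT HSC against WT KL ran from 12 to 25 and the member median from -0.77 to -0.55. In Evi1 HSC against WT KL the count ran from 19 to 28 and the median from -0.75 to -0.65, and in Evi1 HSC against WT HSC the median ran from -0.154 to 0.0156, turning positive without WT HSC replicate 1. Where this left 1 library in a group, that library was assumed to vary like the others. Over the 9 libraries as labelled the medians with libraries left out ran from -0.490 to -0.0863 in WT HSC against WT KL and from -0.75 to -0.36 in Evi1 HSC against WT KL, lowest in each without WT KL replicate 1, and no member was called. The other alternatives left 20 to 24 and 23 to 28 members called in these comparisons over 7 libraries. Depth is unknown, so its limit on low members such as Gins3 could not be given.

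Whether the replicate numbers pair the libraries could not be told. Over 7 libraries the deviations of same-numbered libraries correlated at -0.06 to -0.01. With 2 libraries in a WT group the deviations mirror each other, so these values cannot show or exclude pairing. Over the 9 libraries as labelled, same-numbered WT HSC and WT KL libraries correlated at 0.62, -0.64 and 0.70, with the 2 exceptions among them. With the number as a replicate block, members called were 0, 16 and 24 and medians -0.03, -0.71 and -0.79 over 7 libraries, with Evi1 HSC against WT HSC given before WT HSC and Evi1 HSC, each against WT KL. Over the 9 libraries as labelled the block gave 0 members in each and medians of -0.25, -0.24 and -0.44.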

Other observations

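Genes of mitosis and of E2F control were looked up beside the replication genes. Of 18 mitosis genes, 10 were called lower in WT HSC than in WT KL over 7 libraries and 0 higher, with a median difference of -0.73. Of all tested genes, 10.8% were called lower and 26.7% higher, with a median of 0.26. Ccna2, cyclin A2 of S and G2 phase, was 64.8, 53.0 and 53.1 TPM in Evi1 HSC, 59.9 and 48.8 TPM in WT HSC and 145 and 133 TPM in WT KL, and fell by 1.35 in WT HSC (limma, SE 0.16, adjusted p = 0.0012), with 134 and 60.0 TPM in the exceptions labelled WT HSC and WT KL and a 9-library difference of -0.52. Plk1, a mitotic kinase, fell by 1.24 (SE 0.25, adjusted p = 0.0094). In Evi1 HSC against WT KL, 6 mitosis genes were called lower, with a median of -0.38, beside 14.3% of all tested genes and their median of 0.28. No mitosis gene was called in Evi1 HSC against WT HSC, where 3 had an unadjusted p under 0.05 and the median was 0.27. The 9-library mitosis medians were -0.29, -0.19 and 0.06 in the same order.

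Of 13 E2F and pocket protein genes, 3 were called lower in WT HSC than in WT KL (E2f4, E2f8 and Tfdp1) and 3 higher (E2f3, E2f5 and Rbl2) over 7 libraries. Of all tested genes, 10.8% were called lower and 26.7% higher, so the number called higher was near the general share. E2f4, an E2F that acts with pocket proteins, was 30.6, 37.0 and 33.4 TPM in Evi1 HSC, 45.6 and 38.2 TPM in WT HSC and 119 and 103 TPM in WT KL. Its WT KL libraries stood apart, with a WT HSC difference of -1.39 (limma, SE 0.16, adjusted p = 9.8e-04). Rbl2, which encodes the pocket protein p130 of resting cells, was 36.0, 25.8 and 31.9 TPM in Evi1 HSC, 37.5 and 27.5 TPM in WT HSC and 12.1 and 16.6 TPM in WT KL, and was called higher in WT HSC (1.12, SE 0.24, adjusted p = 0.011). E2f4 was 127 TPM and Rbl2 9.29 TPM in the exception labelled WT HSC, and they were 41.4 and 37.2 TPM in that labelled WT KL. Their 9-library WT HSC differences were -0.39 and 0.12. Over the 9 libraries as labelled, limma called none of these 31 genes in any comparison, and 1, an E2F list gene in Evi1 HSC against WT KL, had an unadjusted p under 0.05.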
